A study of Homo sapiens with 18 samples.

Results

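The genes described here encode the enzymes that hydroxylate proline and lysine in collagen, together with 2 of their partners in the endoplasmic reticulum. The set was chosen by symbol, with earlier results of these data known, and holds 8 of the 23106 genes in the count files. It comprises the prolyl 4-hydroxylase alpha subunits P4HA1, P4HA2 and P4HA3, the lysyl hydroxylases PLOD1, PLOD2 and PLOD3, the collagen chaperone SERPINH1 (HSP47), and CRTAP, a partner of prolyl 3-hydroxylase. In each cell line 7 of the 8 passed the filter on low counts, and P4HA3 did not.

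Procollagen chains are modified in the endoplasmic reticulum before they fold into a triple helix. Prolyl 4-hydroxylase is a tetramer in which an alpha subunit carries the active site and P4HB (protein disulfide isomerase) is the beta subunit, and the 4-hydroxyproline it forms stabilises the helix. Lysyl hydroxylases make the hydroxylysines from which crosslinks and sugar chains are built, PLOD2 acting on the telopeptides at the ends of the chains. All of these enzymes use molecular oxygen, iron and 2-oxoglutarate, the same cosubstrates as the EGLN hydroxylases that mark hypoxia-inducible factor (HIF) for destruction. SERPINH1 holds the folded helix on its way to the Golgi, and CRTAP, prolyl 3-hydroxylase 1 (P3H1, listed as LEPRE1) and cyclophilin B (PPIB) form a complex that modifies and folds the chains.

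PolyA+ RNA was measured by sequencing in 3 cell lines, each in normoxia and in hypoxia, with 3 samples per group and 18 in all. HKC-8 cells are a kidney proximal tubule line, RCC4 cells are a kidney cancer line that had been stably transfected with wild-type VHL (the ubiquitin ligase subunit that captures hydroxylated HIF-alpha), and HepG2 cells are a hepatocellular cancer line. The labels give the hypoxic exposure as 0.5% oxygen for 16 hours in HKC-8 and HepG2 cells and as 1% for 24 hours in RCC4 cells, whereas titles of hypoxic HKC-8 samples read 0.1% and the study's text gives 0.5% for 16 hours for the sequenced RNA of all lines. A difference between RCC4 and another line therefore cannot be told apart from a difference in exposure, and if the titles hold, neither can one between HKC-8 and HepG2 cells. All RCC4 samples carried the VHL transgene, and no label states that the replicates of a group were separate cultures, so p-values measure the spread between these samples, which may be technical. In bulk RNA a change in the share of expressing cells cannot be told apart from a change within each cell. The libraries held 40915980 to 97984260 counts, most in HKC-8 cells, and 3 counts equal 0.0306 to 0.0733 counts per 1000000 (CPM), a floor that covers counting error only. All 6 liver markers averaged at least 1 CPM in HepG2 cells (summed 22260 to 25080 CPM per normoxic and 25930 to 28170 per hypoxic sample), against 0 of 6 in HKC-8 cells (0.228 to 0.502) and 1 of 6 in RCC4 cells (8.49 to 10.6). Of 7 kidney epithelial markers, 3 reached 1 CPM in HKC-8 cells (summed 156 to 200 CPM), 5 in RCC4 cells (562.5 to 586 in normoxia, 481 to 540.1 in hypoxia) and 3 in HepG2 cells (17.0 to 21.9 in normoxia, 31.1 to 34.4 in hypoxia). Hypoxic samples thus did not overlap normoxic ones in the liver sum of HepG2 cells and in the kidney sums of RCC4 and HepG2 cells. Of 5 fibroblast markers, 2 averaged at least 1 CPM in HKC-8 cells, 2 in RCC4 cells and 1 in HepG2 cells. Their sum moved with oxygen, from 5.83 to 12.7 CPM in normoxic against 18.5 to 19.9 in hypoxic HKC-8 samples, from 49.5 to 55.2 against 64.0 to 66.7 in RCC4 samples and from 21.3 to 22.4 against 53.9 to 61.7 in HepG2 samples. PDGFRB, a receptor that is also found outside fibroblasts, made up most of each sum and rose (log2 fold change 1.25, 0.53 and 1.42 in HKC-8, RCC4 and HepG2 cells), whereas THY1 fell in RCC4 cells from 8.42 ± 0.317 to 3.09 ± 0.438 CPM with no overlap (-1.44, edgeR adjusted p = 1.07e-09). The matrix markers DCN and LUM stayed under 0.4 CPM in every sample, DCN had 0 counts in all HepG2 samples and FAP was counted in 1 of the 18. The part of the liver, kidney and fibroblast marker changes in the results was not tested.

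HIF binds DNA at the core letters ACGTG or GCGTG. These were searched on both strands from 250 bases before to 50 bases after each transcription start in RefSeq's promoter windows (GRCh38.p14), which cover 7 of the 8 genes. The bases upstream of the start are printed 5′ to 3′ on the gene's strand for the 4 lysyl and prolyl hydroxylases that were induced in every cell line and for PLOD3, which was induced in none, with the core letters on either strand in capitals. PLOD2 held 3 matches, with first bases at -213, -200 and -146 from the start, PLOD1 held 2, P4HA1 and CRTAP held 1 each, and PLOD3 held 0. SERPINH1 has 2 overlapping windows, with 1 and 3 matches, and the match of the first is also among those of the second. CRTAP and SERPINH1 are not printed, although CRTAP too was induced in no line and SERPINH1 in HepG2 cells only. The printed windows alone thus do not show how matches go with induction over the 7 genes. The RefSeq window of P4HA2 held 0, but the start of the canonical GENCODE transcript of P4HA2 (GRCh37, chromosome 5, position 131563546) lies elsewhere and held 3, at -88, -79 and -66. That window is the one printed, a choice made after the matches were seen. Over all annotated GENCODE starts, windows with a match were 3 of 3 for P4HA1, 5 of 5 for P4HA2, 1 of 1 for PLOD1, 3 of 10 for PLOD2, 0 of 1 for PLOD3, 3 of 4 for SERPINH1 and 2 of 2 for CRTAP. A match describes letters only, as 48.4% of all 35116 RefSeq windows hold at least 1 and 55.4% of 55882 windows at GENCODE protein-coding starts do.
P4HA1, chr10:73096867-73097116, minus strand, GRCh38.p14: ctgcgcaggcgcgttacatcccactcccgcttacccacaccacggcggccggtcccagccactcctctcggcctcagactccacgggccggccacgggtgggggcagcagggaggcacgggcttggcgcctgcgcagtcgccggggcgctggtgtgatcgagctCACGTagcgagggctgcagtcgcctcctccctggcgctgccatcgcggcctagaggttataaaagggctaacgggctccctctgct
P4HA2, chr5:131563547-131563796, minus strand, GRCh37: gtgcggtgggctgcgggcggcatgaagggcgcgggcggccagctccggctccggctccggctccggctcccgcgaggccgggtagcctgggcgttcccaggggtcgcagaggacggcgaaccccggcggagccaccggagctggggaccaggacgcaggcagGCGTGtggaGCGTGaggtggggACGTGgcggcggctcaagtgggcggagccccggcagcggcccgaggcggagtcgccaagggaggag
PLOD1, chr1:11934467-11934716, plus strand, GRCh38.p14: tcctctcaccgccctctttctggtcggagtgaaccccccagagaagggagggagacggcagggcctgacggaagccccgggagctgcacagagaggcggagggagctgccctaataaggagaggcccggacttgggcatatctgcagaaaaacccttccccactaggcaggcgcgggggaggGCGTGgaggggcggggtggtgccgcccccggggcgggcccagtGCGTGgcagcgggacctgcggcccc
PLOD2, chr3:146161185-146161434, minus strand, GRCh38.p14: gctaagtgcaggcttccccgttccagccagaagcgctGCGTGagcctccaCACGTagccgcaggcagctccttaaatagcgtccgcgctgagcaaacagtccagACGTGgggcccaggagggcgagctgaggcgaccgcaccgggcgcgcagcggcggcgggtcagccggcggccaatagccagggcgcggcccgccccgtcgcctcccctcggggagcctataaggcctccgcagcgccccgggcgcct
PLOD3, chr7:101217582-101217831, minus strand, GRCh38.p14: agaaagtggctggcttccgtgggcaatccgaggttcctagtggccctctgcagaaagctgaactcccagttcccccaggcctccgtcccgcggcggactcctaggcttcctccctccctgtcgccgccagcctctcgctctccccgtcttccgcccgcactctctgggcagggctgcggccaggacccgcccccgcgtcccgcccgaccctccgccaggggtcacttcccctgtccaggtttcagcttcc

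Transcripts of P4HA1, P4HA2, PLOD1 and PLOD2 rose in hypoxia in all 3 cell lines. PLOD3, SERPINH1 and CRTAP had log2 fold changes between -0.20 and 0.37. Of the 7 tested members, 4 were induced and 0 repressed in HKC-8 cells, 4 induced and 2 repressed in RCC4 cells, and 5 induced and 0 repressed in HepG2 cells. These calls are from edgeR's quasi-likelihood test without pairing, fitted per cell line over all genes tested, at a Benjamini-Hochberg adjusted p under 0.05. For the 2 zero counts the number was also 0 at an unadjusted p under 0.05 and by DESeq2. With the replicate number as a block, which paired the HKC-8 samples, 5 members were induced and 1 repressed there (CRTAP and PLOD3 being added). That block also called 2836 of all genes induced and 2919 repressed in HKC-8 cells, against 1522 and 1235 without it. The edgeR test called 11.2% of all genes induced and 9.12% repressed in HKC-8, 25.9% and 24.2% in RCC4, and 19.9% and 19.2% in HepG2 cells. The tested members had median log2 fold changes of 0.70, 0.33 and 0.98 in HKC-8, RCC4 and HepG2 cells. All genes tested had medians of 0.004, -0.002 and -0.004 there. As the members were chosen with earlier results of these data known, these comparisons with all genes are description only. Every hypoxic sample stood above every normoxic one for 5 of the 7 members in HKC-8 cells (19.7% of all genes tested), 5 in RCC4 (28.2%) and 5 in HepG2 cells (24.6%). The reverse held for 0 of 7 in HKC-8 (19.5% of all genes), 2 in RCC4 (28.3%) and 0 in HepG2 cells (25%).

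**Figure D1:**
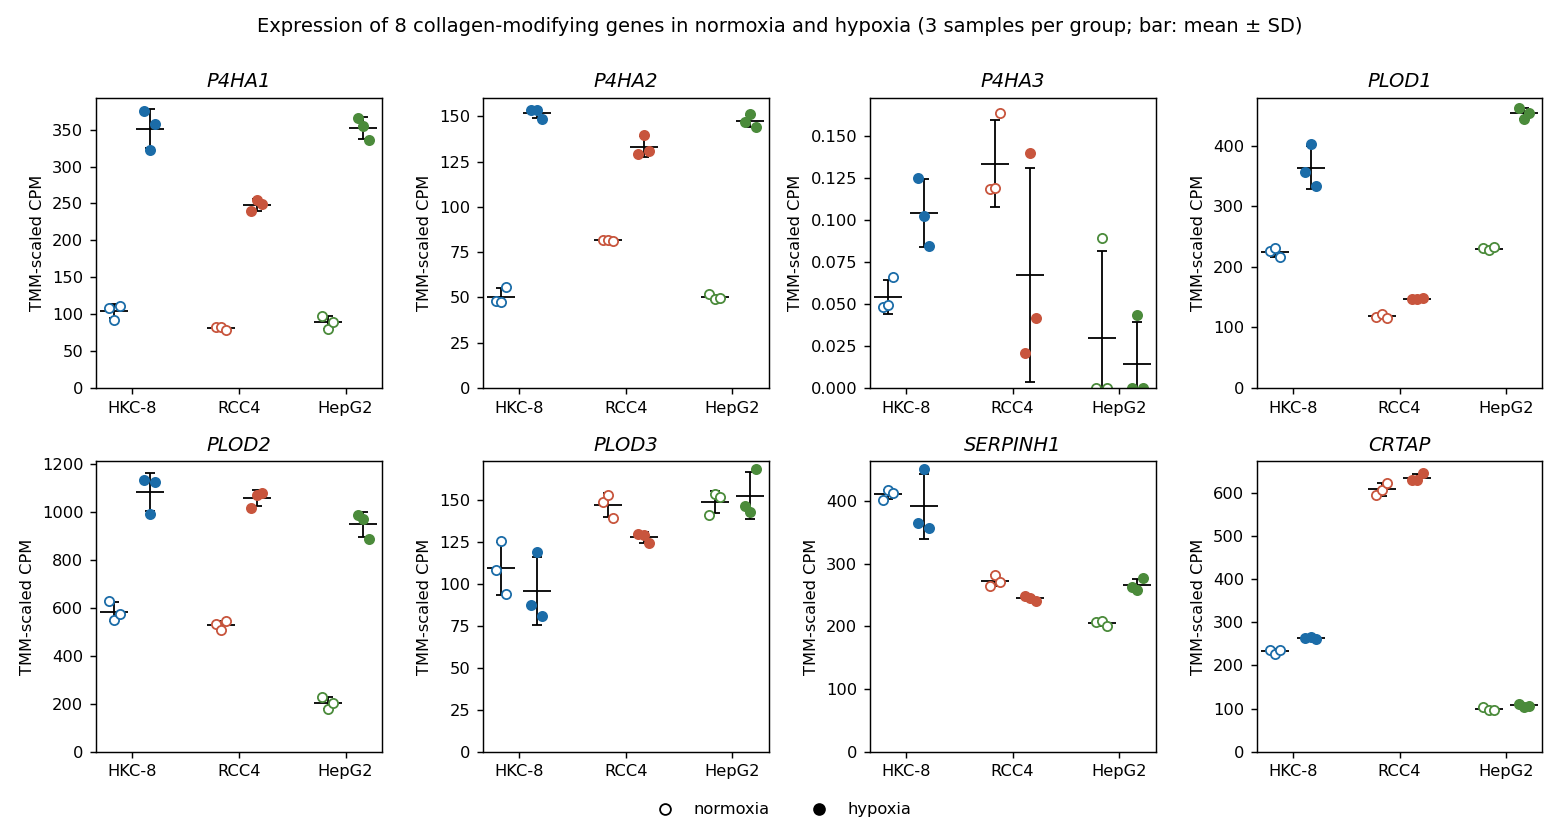
Expression of the 8 genes in TMM-scaled CPM (vertical axes, each from 0) in HKC-8, RCC4 and HepG2 cells, with normoxic samples as open and hypoxic samples as filled points and bars at the mean ± SD (n = 3). The normoxic and hypoxic points of P4HA1, P4HA2, PLOD1 and PLOD2 are apart in every line, whereas P4HA3 stays under 0.2 CPM throughout.

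P4HA1 (chromosome 10, 74766975 to 74856732 in GRCh37, minus strand) encodes the alpha subunit found in most cells. In normoxic HKC-8 cells it stood at 109, 92.7 and 111 CPM and in hypoxic cells at 375, 322 and 358. In RCC4 cells the values were 83.0, 82.4 and 78.2 CPM in normoxia and 239, 254 and 250 in hypoxia, and in HepG2 cells 97.1, 79.9 and 89.4 against 367, 355 and 336. No normoxic sample reached any hypoxic one in its line. On the log2 scale HKC-8 cells gave a fold change of 1.76 ± 0.098 (± standard error here and for all fold changes that follow; edgeR adjusted p = 9.65e-06), RCC4 cells 1.62 ± 0.038 (adjusted p = 3.61e-20) and HepG2 cells 1.99 ± 0.072 (adjusted p = 1.59e-10). Of all genes tested, 1.70%, 0.734% and 1.34% had a higher log2 fold change in the respective line.

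P4HA2 (chromosome 5, 131525840 to 131631008, minus strand), the second alpha subunit, forms tetramers of its own with P4HB. It was counted at 47.9, 47.4 and 55.7 CPM in normoxic and 153, 154 and 148 in hypoxic HKC-8 cells. HepG2 cells gave 51.6, 48.9 and 49.5 CPM in normoxia and 147, 151 and 144 in hypoxia. RCC4 cells started higher, at 81.6, 81.8 and 81.0 CPM, and reached 129, 140 and 131. The RCC4 samples thus lay above those of both other lines in normoxia and below them in hypoxia. The log2 fold change of P4HA2 came to 1.60 ± 0.084 in HKC-8 (edgeR adjusted p = 7.63e-06), 1.56 ± 0.057 in HepG2 (adjusted p = 1.62e-10) and 0.71 ± 0.040 in RCC4 cells (adjusted p = 6.18e-13).

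The balance of the alpha subunits was followed within each library as the ratio of P4HA1 to P4HA2 counts, which library scaling does not touch. The ratio was 0.996 ± 0.0277 (SD, n = 3) in normoxic and 1.86 ± 0.0447 in hypoxic RCC4 cells. In HepG2 cells it was 1.77 ± 0.128 in normoxia and 2.39 ± 0.0891 in hypoxia. It did not overlap between conditions in either line, and the exact two-sided permutation test gave p = 0.1 in each, the smallest p that 3 samples against 3 allow. In HKC-8 cells it was 2.07 ± 0.166 and 2.32 ± 0.193 and the conditions overlapped (exact permutation p = 0.2). It was higher in hypoxia in 3 of 3 same-numbered HKC-8 pairs (exact paired permutation p = 0.25, the smallest that 3 pairs allow). Levels of different genes can be compared only per length. Per kilobase of annotated exon, P4HA1 made up 76.5% ± 0.520 of the alpha subunit transcripts in normoxic RCC4 cells and 85.3% to 88.7% in the other 5 groups, and with the length of the longest transcript instead 61.4% and 73.9% to 79.3%.

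P4HA3 (chromosome 11, 73946846 to 74022685, minus strand), the third alpha subunit, had 4, 4 and 6 counts in normoxic and 10, 10 and 7 in hypoxic HKC-8 cells. RCC4 cells held 6, 6 and 7 counts in normoxia and 1, 7 and 2 in hypoxia, and HepG2 cells 0, 4 and 0 against 0, 2 and 0. No test was made of it. Its exons overlap those of PPME1 on the opposite strand by 166 bases, and since it is not stated whether counting used strand, reads there are uncertain.

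PLOD2 (chromosome 3, 145752926 to 145881512, minus strand) encodes the lysyl hydroxylase of the telopeptides, and its response had the largest difference between lines among the 7 tested members. In HepG2 cells it stood at 227, 178 and 203 CPM in normoxia and 986, 971 and 886 in hypoxia. In HKC-8 cells the values were 629, 548 and 576 CPM against 1132, 993 and 1123, and in RCC4 cells 531, 507 and 544 against 1017, 1072 and 1078. The normoxic HepG2 samples were well below all other samples, whereas the hypoxic samples of the 3 lines spanned 886 to 1132 CPM. HepG2 cells gave a log2 fold change of 2.23 ± 0.084 (edgeR adjusted p = 2.14e-10), HKC-8 cells 0.89 ± 0.091 (adjusted p = 3.77e-04) and RCC4 cells 1.01 ± 0.034 (adjusted p = 4.97e-17).

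PLOD1 (chromosome 1, 11994262 to 12035595, plus strand), a lysyl hydroxylase of the helical part of the chains, rose from 230, 227 and 233 CPM to 462, 444 and 454 in HepG2 cells. It rose in HKC-8 cells from 226, 231 and 215 CPM to 357, 402 and 333. In RCC4 cells it rose from 117, 122 and 115 CPM to 146, 147 and 149. All hypoxic RCC4 samples were below all normoxic samples of the other lines. These are log2 fold changes of 0.98 ± 0.056 in HepG2 (edgeR adjusted p = 1.50e-08), 0.70 ± 0.089 in HKC-8 (adjusted p = 0.00126) and 0.33 ± 0.036 in RCC4 cells (adjusted p = 9.20e-08). The HKC-8 value was 0.63 without hypoxia replicate 2, the highest of its group (adjusted p = 0.00217).

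The lysyl hydroxylases also shifted against each other. The ratio of PLOD2 to PLOD1 counts was 0.881 ± 0.102 (SD, n = 3) in normoxic and 2.09 ± 0.122 in hypoxic HepG2 cells. In RCC4 cells it was 4.47 ± 0.279 in normoxia and 7.16 ± 0.184 in hypoxia. The conditions did not overlap in these lines (exact permutation p = 0.1 in each). In HKC-8 cells it was 2.61 ± 0.218 and 3.01 ± 0.475 and overlapped (exact permutation p = 0.3), hypoxia replicate 2 being lowest of its group at 2.47, and it too was higher in hypoxia in 3 of 3 pairs (exact paired permutation p = 0.25). Per kilobase of annotated exon, PLOD2 made up 16.7% ± 1.87 of the 3 lysyl hydroxylases in normoxic and 36.8% ± 1.85 in hypoxic HepG2 cells, 43.0% ± 1.79 and 59.1% ± 0.890 in RCC4, and 39.6% ± 2.72 and 46.8% ± 4.63 in HKC-8 cells. With the longest transcript as length, its share was 43.9% in hypoxic HepG2, 49.5% and 65.5% in normoxic and hypoxic RCC4, and 46.6% and 54.2% in normoxic and hypoxic HKC-8 cells. The choice of length decided the order of PLOD1 and PLOD2 in normoxic HKC-8 cells and in hypoxic HepG2 cells.

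**Figure D2:**
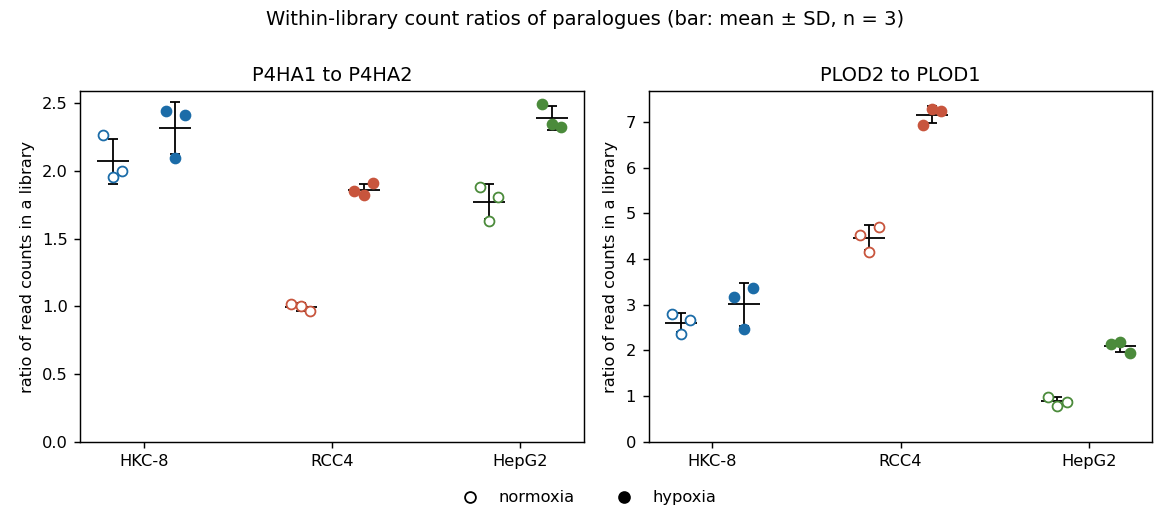
Ratio of the read counts of P4HA1 to P4HA2 (left) and of PLOD2 to PLOD1 (right) within each library (vertical axes, no unit, from 0), with normoxic samples as open and hypoxic samples as filled points and bars at the mean ± SD (n = 3). In RCC4 cells the first ratio moves from about equal counts (0.996) to 1.86, and in HepG2 cells the second moves from 0.881 to 2.09.

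PLOD3 (chromosome 7, 100849258 to 100861701, minus strand) encodes an enzyme that both hydroxylates lysine and adds the sugars to hydroxylysine. In RCC4 cells it fell, from 149, 153 and 139 CPM to 130, 129 and 124, with no overlap, and its log2 fold change was -0.20 ± 0.039 (edgeR adjusted p = 2.17e-04). In HKC-8 cells it stood at 108, 126 and 93.7 CPM in normoxia and 87.6, 119 and 80.8 in hypoxia, which overlapped (-0.19 ± 0.153, adjusted p = 0.424). With 1 sample left out that value ran from -0.07 (without normoxia replicate 2, adjusted p = 0.806) to -0.37 (without hypoxia replicate 2, adjusted p = 0.059). Replicate 2 was the highest of both HKC-8 groups, and with the replicate number as a block the fall was called (-0.20, adjusted p = 0.0231). In HepG2 cells the values were 141, 153 and 152 CPM against 146, 143 and 168 (0.03 ± 0.071, adjusted p = 0.731). The RCC4 call was lost when 1 spread was estimated over all 18 samples (adjusted p = 0.230). PLOD3 exons overlap ZNHIT1 on the opposite strand by 102 bases.

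SERPINH1 (chromosome 11, 75273101 to 75283828, plus strand) rose in HepG2 cells, from 207, 209 and 201 CPM to 263, 258 and 277, with a fold change of 0.37 ± 0.058 in log2 (edgeR adjusted p = 2.22e-04). In RCC4 cells it fell, from 265 to 283 CPM (median 271) to 241 to 249 (median 246), with -0.15 ± 0.034 (adjusted p = 9.24e-04). That call too was lost with 1 spread over all samples (adjusted p = 0.123). In HKC-8 cells the values were 403, 417 and 413 CPM in normoxia and 366, 451 and 358 in hypoxia, hypoxia replicate 2 alone lying above the normoxic samples. Their log2 fold change was -0.07 ± 0.099 (adjusted p = 0.676), and -0.18 without that replicate (adjusted p = 0.146).

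CRTAP (chromosome 3, 33155506 to 33189265, plus strand) passed the test in no cell line. In HKC-8 cells it stood at 235, 227 and 236 CPM in normoxia and 263, 265 and 262 in hypoxia, with no overlap (log2 fold change 0.18 ± 0.068, edgeR adjusted p = 0.0897). With the replicate number as a block, this difference passed the threshold (0.18, adjusted p = 0.0195). It also passed in 1 fit of all 18 samples (0.18, adjusted p = 0.00984). In RCC4 cells the values were 594, 607 and 623 CPM against 630, 630 and 646 (0.07 ± 0.032, adjusted p = 0.0782), and without normoxia replicate 3 that difference passed (0.08, adjusted p = 0.0394). In HepG2 cells 104, 96.2 and 96.4 CPM faced 111, 104 and 107 (0.12 ± 0.058, adjusted p = 0.138).

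**Figure D3:**
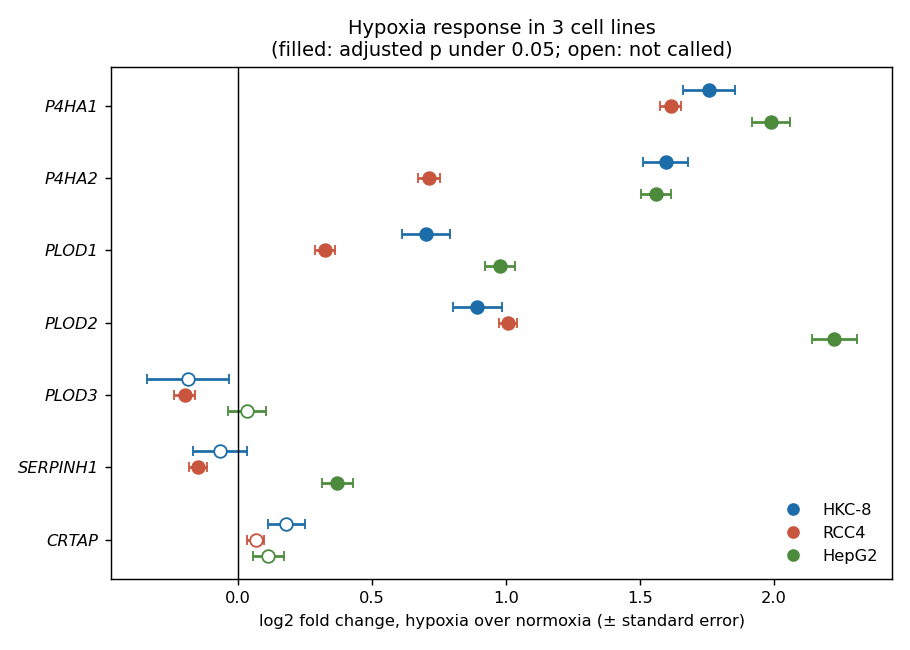
Log2 fold change of hypoxic over normoxic samples (horizontal axis, bars ± standard error) of the 7 tested genes in HKC-8, RCC4 and HepG2 cells. Points are filled where the adjusted p was under 0.05 (edgeR, 3 samples against 3, unpaired). P4HA1 lies between 1.62 and 1.99 in all lines, PLOD2 is apart in HepG2 cells at 2.23, and PLOD3, SERPINH1 and CRTAP lie between -0.20 and 0.37.

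Among the partners of these enzymes, P4HB, the beta subunit shared by all prolyl 4-hydroxylase tetramers, rose in every line. It went from 491 ± 19.8 to 676 ± 68.0 CPM in HKC-8 (SD, n = 3; log2 fold change 0.46, adjusted p = 0.00981), from 755 ± 2.91 to 1071 ± 17.6 in RCC4 (0.51, adjusted p = 1.36e-12) and from 2043 ± 26.2 to 2740 ± 54.0 in HepG2 cells (0.42, adjusted p = 8.72e-05, edgeR). PPIB was not called in any line, with log2 fold changes of -0.19, -0.03 and -0.05. LEPRE1 rose in HepG2 cells (0.22, adjusted p = 0.00790) and had values of 0.11 and 0.10 in HKC-8 and RCC4 cells (adjusted p = 0.371 and 0.0645). Of 13 listed collagen-modifying partners, which include these 3, 12 were tested in HKC-8 cells (1 induced, 1 repressed), 12 in RCC4 (3 and 3) and 13 in HepG2 cells (8 and 1). Their median log2 fold changes were 0.04, -0.04 and 0.23. Of all genes tested, 11.2% were induced and 9.12% repressed in HKC-8, 25.9% and 24.2% in RCC4, and 19.9% and 19.2% in HepG2 cells. With the replicate block, 4 partners were induced and 5 repressed in HKC-8 cells. The block called 2836 of all genes induced and 2919 repressed in these cells, against 1522 and 1235 without it. There DESeq2 gave 3 and 2 partners, and 1 fit of all 18 samples gave 4 and 2 (2503 and 2510 of all genes). A filter of at least 10 counts in every sample gave 2 induced. TMEM38B, an endoplasmic reticulum cation channel named here after its values were seen, was the repressed partner in HepG2 cells (-0.59, adjusted p = 3.78e-05).

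Of 5 lysyl oxidases, which crosslink collagen outside the cell, 3 of 5 tested were induced in HKC-8, 2 of 4 in RCC4 and 5 of 5 in HepG2 cells, with medians of 0.46, 0.70 and 2.80. By edgeR 0 were repressed, also at an unadjusted p under 0.05 and by DESeq2. LOX rose by 2.19, 2.86 and 3.98 on the log2 scale in HKC-8, RCC4 and HepG2 cells (adjusted p = 1.80e-06, 3.03e-24 and 6.96e-13), and LOXL2 by 1.20, 1.21 and 3.07 (adjusted p = 1.65e-05, 1.70e-16 and 2.46e-09). LOXL1 and LOXL3 rose by 1.90 and 2.80 in HepG2 cells from 0.366 ± 0.134 and 0.738 ± 0.207 CPM (adjusted p = 6.68e-04 and 2.89e-07). Of 17 genes of procollagen export and processing, 0 of 16 tested were induced and 2 repressed in HKC-8 cells, 3 and 3 of 15 in RCC4, and 5 and 1 of 15 in HepG2 cells. Their medians were -0.02, -0.05 and 0.13. The 0 stood beside 1 at an unadjusted p under 0.05 and 0 by DESeq2. The replicate block gave 1 induced and 5 repressed in HKC-8 cells, where it called 2836 of all genes induced and 2919 repressed. The shares of all genes tested were 11.2% induced and 9.12% repressed in HKC-8, 25.9% and 24.2% in RCC4, and 19.9% and 19.2% in HepG2. SAR1B, a GTPase of the vesicle coat chosen after its values were seen, fell by 0.37, 0.37 and 0.49 in HKC-8, RCC4 and HepG2 cells (adjusted p = 0.0109, 4.40e-07 and 4.27e-05).

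The collagen chains are the substrates of these enzymes. Of 11 fibrillar chains, 2 of 6 tested were induced in HKC-8, 0 of 5 in RCC4 and 1 of 6 in HepG2 cells, with medians of 0.10, 0.17 and 0.22. In RCC4 cells 0 changed at an unadjusted p under 0.05 and 0 by DESeq2. By edgeR 0 were repressed in any line, with 1 in HKC-8 and 2 in HepG2 cells at an unadjusted p under 0.05. DESeq2 and the replicate block each called 1 repressed in HKC-8 cells, where the block called 2919 of all genes repressed. COL5A1 rose from 40.6 ± 7.35 to 91.9 ± 6.11 CPM in HKC-8 cells (log2 fold change 1.18, adjusted p = 4.83e-04). COL1A1, the major chain of type I collagen, was chosen after its values were seen and was low throughout. It rose from 6.42 ± 0.941 to 9.38 ± 0.317 CPM in HepG2 cells (0.55, adjusted p = 0.00301). In RCC4 cells it stood at 2.52 ± 0.152 in normoxia and 2.12 ± 0.223 CPM in hypoxia, with no overlap and no call. The HKC-8 samples overlapped (6.2 ± 0.87 and 6.4 ± 1.3 CPM). Of 6 basement membrane chains, 2 of 6 tested, 2 of 5 and 1 of 4 were induced in HKC-8, RCC4 and HepG2 cells, with medians of 0.46, 0.16 and 0.08, and 0 were repressed by edgeR, at an unadjusted p under 0.05 or by DESeq2. Of all genes tested, 11.2%, 25.9% and 19.9% were induced and 9.12%, 24.2% and 19.2% repressed in the same order of lines.

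Among 12 other protein hydroxylases that use oxygen, 4 of 12 tested were induced and 2 repressed in HKC-8, 3 and 4 of 11 in RCC4, and 4 and 4 of 11 in HepG2 cells. Their medians were -0.02, -0.12 and 0.12. Beside these counts, 11.2% of all genes tested were induced and 9.12% repressed in HKC-8, 25.9% and 24.2% in RCC4, and 19.9% and 19.2% in HepG2. EGLN1 rose by 1.12, 0.80 and 1.42 in HKC-8, RCC4 and HepG2 cells (adjusted p = 5.33e-05, 5.81e-15 and 7.71e-08). EGLN3 rose by 2.38 in HKC-8 and 5.30 in HepG2 cells (adjusted p = 5.73e-05 and 1.75e-09) and did not pass the count filter in RCC4 cells.

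**Figure D4:**
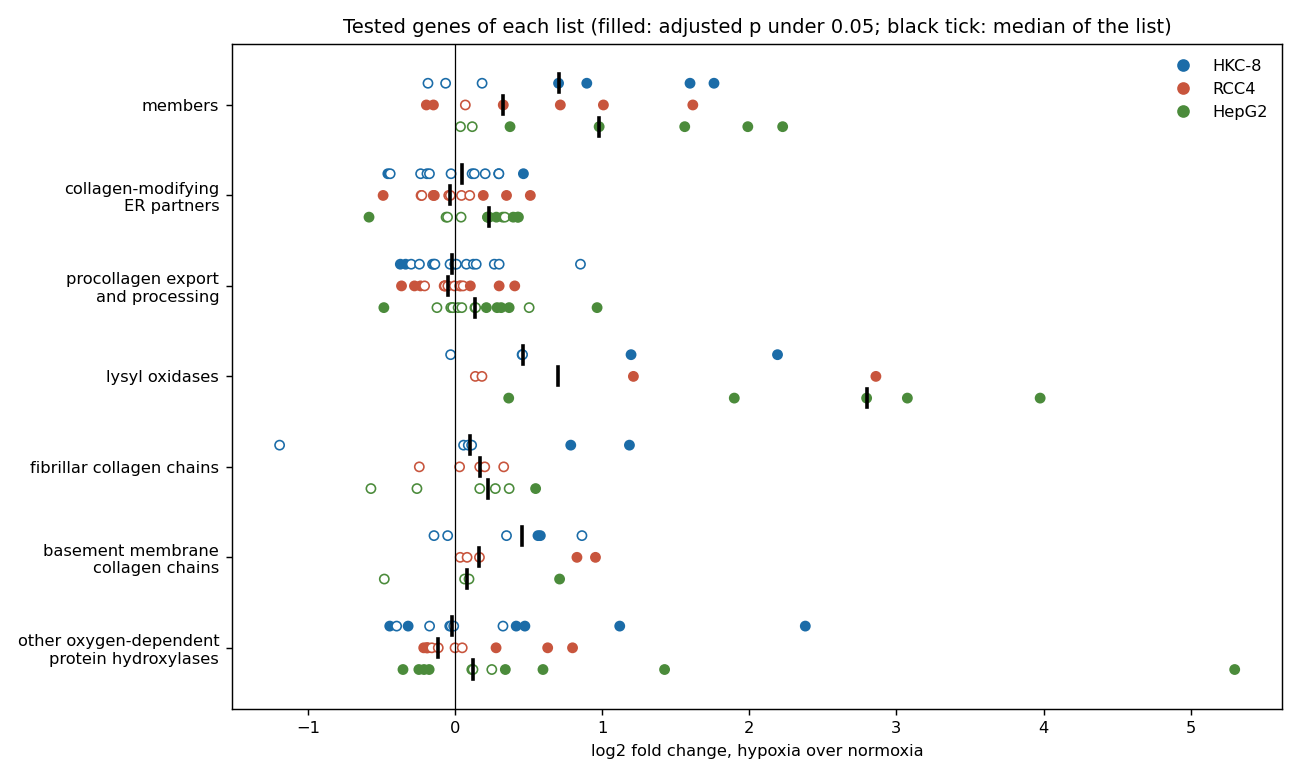
Log2 fold change of hypoxic over normoxic samples (horizontal axis) of every tested gene of 7 lists (rows) in the 3 cell lines, filled where the adjusted p was under 0.05 (edgeR), with a tick at each list's median. The members' medians are 0.70, 0.33 and 0.98, beside 0.04, -0.04 and 0.23 for the partners and 0.46, 0.70 and 2.80 for the lysyl oxidases. Members and lists were chosen with earlier results of these data known.

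Whether the response itself differed between lines was tested by the interaction term of line and oxygen. Each pair of lines was fitted with its 12 samples, without a replicate block unless stated, and the pairs share samples. Between HKC-8 and HepG2 cells, which had the same exposure by their characteristics but not by their titles, 2 of 7 members differed (9.30% of all genes tested). The response of PLOD2 was 1.34 smaller on the log2 scale in HKC-8 cells (difference -1.34, standard error 0.133, adjusted p = 1.74e-05), and that of SERPINH1 0.44 smaller (-0.44, standard error 0.117, adjusted p = 0.0271). The SERPINH1 call was lost in 8 of the 12 fits that left out 1 sample. P4HA1 and P4HA2 gave differences of -0.23 and 0.03 (standard errors 0.128 and 0.10, adjusted p = 0.292 and 0.911). PLOD1 gave -0.28 (standard error 0.103, adjusted p = 0.108). That difference passed with the replicate block (adjusted p = 0.0214) and without HKC-8 hypoxia replicate 2 (-0.34, adjusted p = 0.0218). It also passed with DESeq2 (-0.29, adjusted p = 0.0431) and in 1 fit of all 18 samples (-0.28, adjusted p = 0.0324).

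RCC4 cells, exposed according to their labels for longer at more oxygen, responded less than HKC-8 cells in 2 of 7 members (15.2% of all genes differed). These were P4HA2, by -0.90 (standard error 0.096, adjusted p = 6.83e-05), and PLOD1, by -0.40 (0.087, adjusted p = 0.00823). Against HepG2 cells, 6 of 7 members differed (22.6% of all genes), all with the smaller or the negative value in RCC4 cells. The differences were -1.23 for PLOD2 (adjusted p = 1.84e-08), -0.86 for P4HA2 (adjusted p = 2.49e-08), -0.66 for PLOD1 (adjusted p = 1.89e-07), -0.53 for SERPINH1 (adjusted p = 7.74e-06), -0.38 for P4HA1 (adjusted p = 0.00253) and -0.24 for PLOD3 (adjusted p = 0.0463). The PLOD3 call was lost in 8 of the 12 fits that left out 1 sample (adjusted p up to 0.154) and with 1 spread over all 18 samples (adjusted p = 0.395). CRTAP differed in none of the pairs at the threshold, with differences of 0.06, -0.13 and -0.06 for HKC-8 minus HepG2, RCC4 minus HKC-8 and RCC4 minus HepG2 (adjusted p = 0.721, 0.203 and 0.616).

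The starting levels of the members in normoxia were compared in 1 fit of the 9 normoxic samples, in which most of all genes differed between lines. HKC-8 and HepG2 cells differed in 5 of 7 members (83% of all genes tested), RCC4 and HKC-8 cells in 6 (80.8%) and RCC4 and HepG2 cells in 5 (83.3%). CRTAP had the widest range, with 608 ± 14.7 CPM in RCC4, 233 ± 4.71 in HKC-8 and 98.8 ± 4.20 in HepG2 cells, each step being called (log2 differences 1.40 and 1.22, adjusted p = 7.48e-11 and 2.76e-10). SERPINH1 ran in another order, with HKC-8 cells at 411 ± 7.50, RCC4 cells at 273 ± 8.99 and HepG2 cells at 205 ± 4.20, again with both steps called (RCC4 minus HKC-8 -0.58, adjusted p = 6.34e-07, RCC4 minus HepG2 0.40, adjusted p = 2.45e-05). PLOD2 stood at 584 ± 41.6 CPM in HKC-8 and 527 ± 18.5 in RCC4 cells, which were not called different (-0.14, adjusted p = 0.160), and both exceeded HepG2 cells at 203 ± 24.7 (1.51 and 1.37, adjusted p = 1.33e-09 and 3.48e-09).

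PLOD1 stood at 230 ± 2.78 CPM in HepG2 and 224 ± 8.09 in HKC-8 cells, with a difference of -0.06 (standard error 0.059, adjusted p = 0.380), and lower in RCC4 cells at 118 ± 3.33 (-0.91 against HKC-8, adjusted p = 4.93e-09). P4HA2 was highest in RCC4 cells at 81.5 ± 0.409 CPM, 0.71 above HKC-8 and 0.70 above HepG2 cells (adjusted p = 6.73e-07 and 8.21e-07), and its level in HKC-8 cells (50.3 ± 4.64) and HepG2 cells (50.01 ± 1.39) differed by -0.01 (standard error 0.074, adjusted p = 0.899). P4HA1 stood at 104 ± 10.0 CPM in HKC-8, 88.8 ± 8.62 in HepG2 and 81.2 ± 2.61 in RCC4 cells. RCC4 was called below HKC-8 (-0.35, adjusted p = 0.00193) and not different from HepG2 cells (-0.14, adjusted p = 0.152). The call of HKC-8 over HepG2 (0.21, adjusted p = 0.0353) was lost with other size factors (0.19, adjusted p = 0.0510), without HKC-8 normoxia replicate 1 (0.19, adjusted p = 0.0943) and without HepG2 normoxia replicate 2 (0.20, adjusted p = 0.0556). It was 0.35 without HKC-8 normoxia replicate 2 and 0.33 without HepG2 normoxia replicate 1. PLOD3 was at 149 ± 6.66 CPM in HepG2 and 147 ± 7.18 in RCC4 cells (-0.03, adjusted p = 0.799), above HKC-8 cells at 109 ± 16.0 (RCC4 minus HKC-8 0.44, adjusted p = 5.66e-04).

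The genes most like each member in pattern were found by Pearson's r of log2 CPM over the 18 samples among 15307 genes. These values describe samples that fall into 6 groups and share their libraries. For P4HA1 they were UPRT (r = 0.988), the fucosyltransferase FUT11 (0.987) and the ephrin EFNA3 (0.983). For P4HA2 they were the transcriptional repressor BHLHE40 (0.971), MOB3A (0.971) and the glycolytic enzyme GPI (0.965), and for PLOD2 the mitophagy receptor BNIP3L (0.967), ZNF395 (0.966) and the glycogen branching enzyme GBE1 (0.965). PLOD1 was most like EGLN3 (0.984), SERPINH1 like NFIC (0.968), PLOD3 like AURKAIP1 (0.965) and CRTAP like OGFRL1 (0.998). EGLN3 had only 1, 1 and 0 counts in normoxic and 3, 5 and 7 in hypoxic RCC4 cells. Its r with PLOD1 therefore rests in part on samples near the floor. Among the members themselves r was highest between P4HA1 and P4HA2 (0.897), followed by P4HA2 with PLOD2 (0.840) and P4HA1 with PLOD2 (0.806), and lowest between PLOD1 and CRTAP (-0.752). By Spearman's rho BNIP3L was still among the 3 genes nearest to PLOD2, whereas the nearest gene of each other member changed.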

How the data were processed

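PolyA+ RNA of 18 samples was sequenced with a kit that keeps strand. Per the labels and the study's methods, the authors trimmed reads (Trim Galore 0.3.3) and aligned them to GRCh37 (TopHat2 2.0.8b, Bowtie 1.0.0, SAMtools 0.1.19). They removed fragments that mapped more than once and counted reads on UCSC genes with HTSeq 0.5.4p3 in its intersection-strict mode. That mode counts a read only if it lies wholly in a gene's exons, and leaves it out if it also lies wholly in those of another. The deposited values are raw counts per gene and sample, without normalization. Removing multiply mapped fragments lowers genes with near-identical copies.

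Everything else was computed here with R 4.3.3, edgeR 4.0.16 and, for alternatives, DESeq2 1.42.0, and Python 3.11.15. Genes were kept by filterByExpr and scaled by TMM, and glmQLFit and glmQLFTest were run per cell line over all genes, with Benjamini-Hochberg adjustment at 0.05. Standard errors are the log2 fold change divided by the square root of F. CPM values use 1 TMM scale over the 18 samples. Lengths, coordinates and overlaps are from GENCODE v44lift37, and promoter windows from RefSeq. The tests were tried on unpaired simulated counts, drawn with edgeR's own estimates of spread and large planted changes. That trial does not show how they do on small changes or paired samples. All members are named, list genes where called with a log2 fold change of 1 or more in size, P4HB, PPIB and LEPRE1 always, and as most similar the 3 genes with the highest r for P4HA1, P4HA2 and PLOD2 and 1 for each other member (prior count 2). Others are said to be chosen after seeing values. The members and lists were chosen with earlier results of these data known.

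Titles number the replicates alike in normoxia and hypoxia. Deviations of same-numbered HKC-8 samples from their group means correlated at 0.109, 0.453 and 0.447 across genes. With other numbers the highest values were 0.116, 0.116 and 0.0488. The numbers were taken to pair the HKC-8 samples, although replicate 1 was no closer to its own number. The calls, standard errors and differences in response of HKC-8 cells nonetheless leave this pairing out, except where a block is named. In RCC4 (-0.0103 to 0.0333) and HepG2 cells (0.0617 to 0.184) they were not so taken. Other numbers reached 0.0238 in RCC4 and 0.0234 in HepG2 cells. Every same-numbered HepG2 value was above the latter, so the HepG2 samples may be paired as well. Alternatives were each sample left out, the replicate block, a joint fit of all samples, DESeq2, its size factors in edgeR, a filter of 10 counts per sample or none, and another gene length or correlation. The count ratios, unpaired and paired, were added after the data were examined.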

Additional observations from a re-analysis of the deposited data

Results flagged for a closer look

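The responses of several members differed between cell lines by a test of the interaction (edgeR, adjusted p under 0.05), which is why they are listed. Between HKC-8 and HepG2 cells these were PLOD2 (-1.34 on the log2 scale) and SERPINH1 (-0.44), the latter past the threshold in 4 of the 12 fits that left out 1 sample. For RCC4 against HKC-8 cells they were P4HA2 (-0.90) and PLOD1 (-0.40). For RCC4 against HepG2 cells they were P4HA1 (-0.38), P4HA2 (-0.86), PLOD1 (-0.66), PLOD2 (-1.23), PLOD3 (-0.24) and SERPINH1 (-0.53), the call of PLOD3 holding in 4 of the 12 fits that left out 1 sample and not in 1 fit of all samples (adjusted p = 0.395). In pairs with RCC4, the cell line, its VHL transgene and the labelled exposure cannot be told apart, and titles also give HKC-8 and HepG2 cells different oxygen levels (0.1% and 0.5%). PLOD2 began lower in normoxic HepG2 cells (203 CPM) than in the other lines (527 and 584), and P4HA2 began higher in normoxic RCC4 cells (81.5 CPM) than in the others (50.01 and 50.3). The part of these starting levels in the differences was not tested.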

How the results depend on the processing

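The counts of induced members, the counts of members differing in normoxia and in the RCC4 pairs of responses were the same or within 1.5 times under all alternatives run. For HKC-8 against HepG2 cells, 1 to 3 members differed when 1 sample was left out. With the replicate block, 1 member was repressed in HKC-8 cells. Over all genes, HKC-8 cells had 1522 induced and 1235 repressed, 2836 and 2919 with the block, 2503 and 2510 in 1 fit of all samples, and 687 and 326 without normoxia replicate 1, 933 and 522 without normoxia replicate 2, 750 and 342 without hypoxia replicate 1 and 675 repressed without hypoxia replicate 3, with P4HA1, P4HA2, PLOD1 and PLOD2 induced in each of these fits. RCC4 cells had 3318 and 3105, and 1867 and 1419 in 1 fit of all samples. Differences in response numbered 644 higher and 755 lower for HKC-8 minus HepG2 (1363 and 1656 with the block, 1010 and 1209 in 1 fit of all samples), 1118 and 1036 for RCC4 minus HKC-8 (2179 and 1892 with the block) and 1618 and 1736 for RCC4 minus HepG2 cells (925 and 961 in 1 fit of all samples). Leaving out 1 sample moved the first pair as far as 1000 higher (without HKC-8 normoxia replicate 3) and 481, 492 or 501 lower (without HepG2 hypoxia replicate 1, normoxia replicate 2 or hypoxia replicate 3), and the second to 667, 683 or 673 lower (without RCC4 hypoxia replicate 2, normoxia replicate 2 or hypoxia replicate 3). The block also moved CRTAP in RCC4 cells past the threshold (adjusted p = 0.0439), where the numbers were not taken to pair the samples. It changed no member's call other than those given here and in the report. In 1 fit of all samples, 0 members were repressed in RCC4 cells. The call of P4HA1 in HKC-8 over HepG2 normoxia was lost with DESeq2 (adjusted p = 0.0528) and with at least 10 counts in every sample (adjusted p = 0.0689).

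Values near 0 that were not called changed sign. In normoxia, HKC-8 minus HepG2 was 0.069 without a filter and 0.009 in 1 fit of all samples for P4HA2 and 0.022 without a filter for PLOD1, and RCC4 minus HepG2 was 0.005 with DESeq2, 0.005 with its size factors and 0.038 without a filter for PLOD3. With 1 sample left out, the PLOD3 response in HepG2 cells ran from -0.04 to 0.08. Differences in response ran from -0.009 to 0.142 for P4HA2 in HKC-8 minus HepG2 cells, and in RCC4 minus HKC-8 cells from -0.136 to 0.17 for PLOD3 and from -0.148 to 0.027 for SERPINH1. Normoxic differences ran from -0.035 to 0.095 for P4HA2 and -0.054 to 0.026 for PLOD1 in HKC-8 minus HepG2 cells, and from -0.053 to 0.05 for PLOD3 in RCC4 minus HepG2 cells. The cause was not tested. At 0 to 10 counts per library, P4HA3 was too low to be tested in any line.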
